A study of Mus musculus with 8 samples.

Results

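The unfolded protein response is the programme by which a cell adjusts the folding capacity of its endoplasmic reticulum. Sensors in the reticulum membrane (IRE1, PERK and ATF6) act through the transcription factors XBP1, ATF4 and cleaved ATF6, which raise chaperones, disulfide isomerases and the machinery that removes misfolded proteins, and through CHOP under lasting stress. In the small intestine the pathway is known for its part in secretory cells, above all Paneth and goblet cells, and in antibody-producing plasma cells of the lamina propria.

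The members were 10 genes, taken from the joint count table by gene symbol out of 55421 gene IDs in all. They are the transcription factors Atf4, Xbp1 and Ddit3 (CHOP), the chaperones Hspa5 (BiP), Hsp90b1 (GRP94) and Calr (calreticulin), the disulfide isomerases Pdia4 and Pdia6, Herpud1, a membrane protein of reticulum-associated degradation, and Dnajb9, a J-domain cochaperone of BiP. The symbol Ddit3 occurred on 2 IDs, so that 11 rows matched. The second ID (ENSMUSG00000116429, chromosome 10, 127290829 to 127293753) has 105 exonic bases, 0 of them free of the main Ddit3 gene. It held 2, 1, 1 and 1 counts in Hypoxia+Nitrate 1 to 4, against 1, 1, 0 and 1 counts in Hypoxia 1 to 4. It was too low to be tested, while the other 10 rows all passed the filter on low counts.

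RNA sequencing was done on tissue labelled small intestine of wild-type mice (label WT); the extraction text in the labels speaks of islets instead, and which is right is not settled by the labels. In the Hypoxia+Nitrate group (4 samples) the animals were kept at 7% oxygen for 7 days and received 4 mM nitrate, which mammals and their oral bacteria can turn into nitrite and nitric oxide. In the Hypoxia group (4 samples) they were kept at the same oxygen level and time without nitrate. Hypoxia is thus shared by both groups, and no normoxic sample is compared here. Strain, age, sex and the route of nitrate are not stated in the labels, nor is whether each sample came from a separate animal; the p-values below therefore rest on sample-to-sample spread, which may be technical.

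The libraries differed in ways that touch every result. Total counts ranged from 8662279 to 63943036 in Hypoxia+Nitrate and from 5345377 to 21835865 in Hypoxia. Mitochondrial genes took 64.9% and 49.95% of the counts of Hypoxia+Nitrate 1 and 4, 8.15% and 7.31% of Hypoxia+Nitrate 2 and 3, and 0.582% to 1.40% in Hypoxia. The ribosomal DNA locus took 2.33%, 21.96%, 4.95% and 3.42% of the counts of Hypoxia+Nitrate 1 to 4. In Hypoxia 1 to 4 it took 75.71%, 73.70%, 7.06% and 44.97%. A background was read from 1470 chemosensory receptor genes (Olfr, Vmn and Taar families), taken to be silent in gut, as counts per kb of exon that no other gene overlaps. The background scaled to all nuclear protein-coding genes came to 2.86%, 23.2%, 19.6% and 2.74% of their counts in Hypoxia+Nitrate 1 to 4 and to 63.7%, 39.1%, 54.4% and 46.7% in Hypoxia 1 to 4. Its part in the differences between the groups cannot be told apart from nitrate. All 10 markers of small intestinal epithelium, the labelled tissue, had counts in both groups, with summed levels of 730 to 26989.8 CPM (counts scaled to library size, with TMM factors) in Hypoxia+Nitrate and 48.0 to 417 CPM in Hypoxia. With the 4 Hypoxia libraries pooled, the median marker stood at 3.61 times the expected background, from 0.858 times for Sis to 49.9 times for Fabp2. Fabp2 had 917, 2184, 48 and 120 counts in Hypoxia 1 to 4, so its pooled multiple leans on Hypoxia 1 and 2. The summed marker levels were 147.5, 417, 48.0 and 49.8 CPM in Hypoxia 1 to 4. Having counts there does not by itself show expression.

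All 10 members had a promoter window in RefSeq (GRCm38.p6), and the 250 bases before the annotated start were searched on both strands for motifs of the pathway. The ER stress response element, bound by ATF6 together with NF-Y, is CCAAT and CCACG with 9 bases of any kind between them. It was found in 4 members, Hspa5, Hsp90b1, Calr and Pdia6, and in 0.113% of all 32851 windows. The related ER stress response element II, ATTGG and CCACG with 1 base between them, was found in Herpud1 alone among the members and in 0.0304% of all windows. The composite CEBP-ATF element, spelled TGATGNAA and bound by ATF4 and CHOP with C/EBP partners, was also found in Herpud1 alone among the members and in 3.45% of all windows. The unfolded protein response element, spelled TGACGTGG, was found in 0 members and in 0.563% of all windows. A match describes letters and not a bound site, and a window without one says only that these letters are not in it.

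The windows with a match to a motif named above are shown, and Pdia4 is shown because its level moved least. They are written from 5′ to 3′ on the strand of the gene, without the part that GENCODE M21 places inside the gene. The fixed letters of a matched motif are in capitals; CGTGG and ATTGG are CCACG and CCAAT read on the other strand. For Hspa5 the element lies 65 to 47 bases before the RefSeq start and inside the GENCODE gene, so only the match with its flanks is given.
Hspa5, chr2:34772020-34772049, plus strand: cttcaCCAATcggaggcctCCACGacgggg
Hsp90b1, chr10:86705510-86705694, minus strand: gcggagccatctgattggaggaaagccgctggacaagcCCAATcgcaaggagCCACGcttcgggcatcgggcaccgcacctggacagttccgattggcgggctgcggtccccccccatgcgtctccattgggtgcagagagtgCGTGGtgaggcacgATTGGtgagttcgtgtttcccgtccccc
Calr, chr8:84846935-84847181, minus strand: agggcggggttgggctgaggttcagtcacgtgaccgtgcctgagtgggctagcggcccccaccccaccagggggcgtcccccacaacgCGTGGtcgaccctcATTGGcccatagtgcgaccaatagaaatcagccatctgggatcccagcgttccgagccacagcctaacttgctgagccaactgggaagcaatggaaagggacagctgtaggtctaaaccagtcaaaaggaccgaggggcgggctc
Pdia6, chr12:17266339-17266544, plus strand: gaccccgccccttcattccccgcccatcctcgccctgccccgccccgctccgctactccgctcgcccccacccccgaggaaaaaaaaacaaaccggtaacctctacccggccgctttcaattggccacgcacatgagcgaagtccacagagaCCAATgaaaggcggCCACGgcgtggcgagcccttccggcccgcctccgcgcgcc
Herpud1, chr8:94386179-94386428, plus strand: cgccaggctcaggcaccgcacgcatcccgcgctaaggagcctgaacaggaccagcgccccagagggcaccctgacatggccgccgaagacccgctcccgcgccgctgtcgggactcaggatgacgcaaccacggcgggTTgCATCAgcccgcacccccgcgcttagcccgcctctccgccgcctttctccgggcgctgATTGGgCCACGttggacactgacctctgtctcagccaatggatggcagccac
Pdia4, chr6:47813513-47813762, minus strand: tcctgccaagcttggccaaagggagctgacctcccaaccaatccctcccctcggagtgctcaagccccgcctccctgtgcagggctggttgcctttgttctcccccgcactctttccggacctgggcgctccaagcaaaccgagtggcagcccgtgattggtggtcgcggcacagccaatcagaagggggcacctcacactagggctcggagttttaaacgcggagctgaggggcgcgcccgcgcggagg

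Of the 10 members 8 rose in Hypoxia+Nitrate and 0 fell (edgeR quasi-likelihood test, adjusted p under 0.05 over 35431 genes), where 11.7% of all genes tested rose and 12.7% fell (24.4% in either direction). At an unadjusted p under 0.05 in edgeR, 9 members were higher and 0 lower, where 14442 of 35431 genes passed in either direction. DESeq2 also called 8 higher and 0 lower (13.1% of genes higher), and limma-voom 6 and 0 (10.9%). Atf4 and Calr changed most and Pdia4 and Hspa5 did not pass. The median log2 fold change of the members was 2.28, against -0.58 for all genes tested and 0.04 for the 20128 nuclear protein-coding genes among them, of which 18.5% rose. For 6 members every Hypoxia+Nitrate library lay above every Hypoxia library, as it did for 12% of all genes tested and 18% of the nuclear protein-coding ones; 0 members lay wholly below, against 28.8% of all genes. Leaving out Hypoxia 1 left 1 member called (1.95% of genes higher in that fit), leaving out Hypoxia 2 left 5 (7.06%), and leaving out Hypoxia 3 or Hypoxia 4 left 2 each (4.16% and 4.23%). With Hypoxia+Nitrate 1 or 4 left out 6 members passed (9.09% and 7.65%), and with Hypoxia+Nitrate 2 or 3 left out 9 (14.3% and 13.1%). Dropping both Hypoxia+Nitrate 1 and 4 left 3 (10.1%), and dropping both Hypoxia 1 and 2 left 0 in edgeR (1.51%). In the latter fit 8 members were at an unadjusted p under 0.05, as were 11037 of 41205 genes in either direction. RLE factors, upper-quartile factors and nuclear protein-coding genes alone gave 6 each (9.14%, 8.03% and 15.1%), no filter on low counts gave 8 (9.33%) and the replicate number as a block gave 5 (6.14%). With edgeR on library size alone 0 members passed (0.686%), and 1 was higher at an unadjusted p under 0.05. There 6335 of 35431 genes passed that unadjusted limit in either direction.

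**Figure D1:**
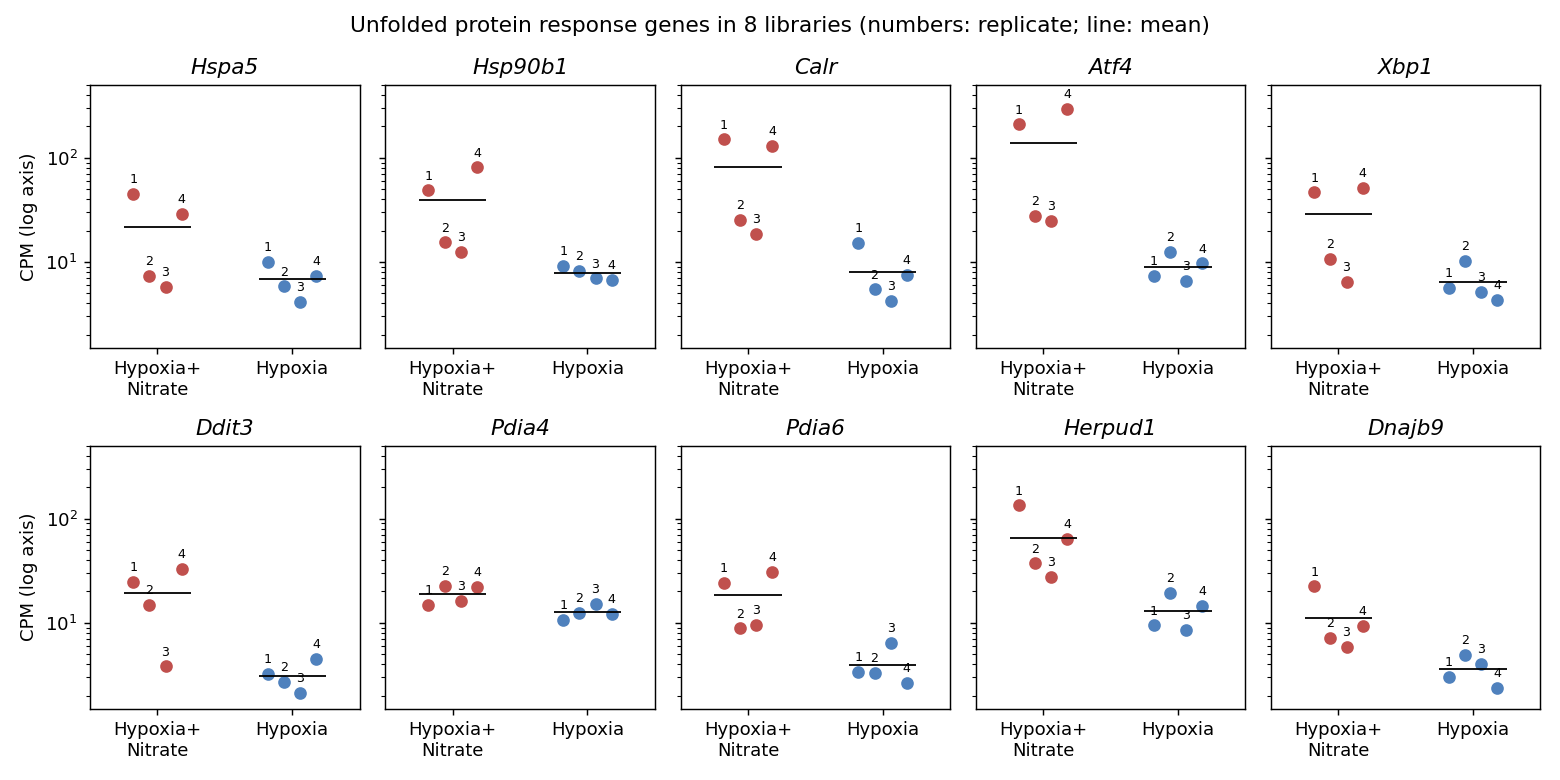
Level of each of the 10 genes in CPM (log axis) in the 4 Hypoxia+Nitrate libraries (left, red) and the 4 Hypoxia libraries (right, blue); numbers give the replicate and lines the group mean. Hypoxia+Nitrate 1 and 4 stand above Hypoxia+Nitrate 2 and 3 for 9 genes, while Pdia4 stays between 10.6 and 22.6 CPM in all 8 libraries.

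Among the transcription factors, Atf4 (ENSMUSG00000042406, chromosome 15, 80255184 to 80257541), which drives amino acid and redox genes once PERK slows translation, had 209, 27.8, 24.7 and 295 CPM in Hypoxia+Nitrate 1 to 4, against 7.41, 12.5, 6.59 and 9.70 CPM in Hypoxia 1 to 4. The groups did not overlap, and Hypoxia+Nitrate 1 and 4 were far above the other libraries. Atf4 rose by a log2 fold change of 3.94 (SE 0.870, adjusted p = 0.0116). It passed in 7 of the 8 fits that left out 1 library, all but that without Hypoxia 1 (adjusted p = 0.0563), and without Hypoxia+Nitrate 1 and 4 it was 1.61 (SE 0.354, adjusted p = 0.0173).

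Ddit3 (ENSMUSG00000025408, chromosome 10, 127290774 to 127296288) encodes CHOP, which lies downstream of ATF4. Its levels were 24.9, 14.8, 3.81 and 33.0 CPM in Hypoxia+Nitrate 1 to 4 and 3.20, 2.69, 2.11 and 4.46 CPM in Hypoxia 1 to 4. Hypoxia+Nitrate 3 lay below Hypoxia 4, so the groups overlapped. Ddit3 rose by 2.61 on the log2 scale (SE 0.621, adjusted p = 0.0150) and did not pass without Hypoxia 1 or without Hypoxia 3. Of its exonic length 89.1% is free of other genes; it shares bases with Mars on the other strand.

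Xbp1 (ENSMUSG00000020484, chromosome 11, 5520659 to 5525893) encodes the factor that IRE1 activates by splicing its RNA, which gene counts cannot show. It had 46.5, 10.7, 6.42 and 50.9 CPM in Hypoxia+Nitrate 1 to 4, against 5.67, 10.3, 5.16 and 4.34 CPM in Hypoxia 1 to 4. Hypoxia 2 lay above Hypoxia+Nitrate 3 and close to Hypoxia+Nitrate 2. The log2 fold change of Xbp1 was 2.17 (SE 0.678, adjusted p = 0.0398). It passed in 2 of the 8 fits that left out 1 library, those without Hypoxia+Nitrate 2 and without Hypoxia+Nitrate 3. Without Hypoxia+Nitrate 1 and 4 the log2 fold change was 0.49 (SE 0.457, adjusted p = 0.430).

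Hspa5 (ENSMUSG00000026864, chromosome 2, 34771970 to 34777547) encodes BiP, the central chaperone of the reticulum and the classical readout of the response. It had 45.0, 7.33, 5.77 and 29.03 CPM in Hypoxia+Nitrate 1 to 4 and 9.95, 5.82, 4.11 and 7.35 CPM in Hypoxia 1 to 4. Hypoxia+Nitrate 2 and 3 lay within the range of the Hypoxia libraries. The log2 fold change of 1.68 (SE 0.661) did not pass (adjusted p = 0.0842). It passed in 2 of the 8 fits that left out 1 library, those without Hypoxia+Nitrate 2 and without Hypoxia+Nitrate 3 (adjusted p as low as 0.0204). Without Hypoxia+Nitrate 1 and 4 it was 0.03 (SE 0.431, adjusted p = 0.965).

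The other chaperones rose without overlap between the groups. Hsp90b1 (ENSMUSG00000020048, chromosome 10, 86690209 to 86705509), which encodes the HSP90 of the reticulum, had 48.6, 15.4, 12.5 and 80.9 CPM in Hypoxia+Nitrate 1 to 4, against 9.21, 8.15, 6.96 and 6.75 CPM in Hypoxia 1 to 4. Its log2 fold change was 2.34 (SE 0.612, adjusted p = 0.0209), and it did not pass in any of the 4 fits that left out a Hypoxia library (adjusted p up to 0.0694). Of its exonic length 84.3% is free of other genes; the overlapping ones include 1810014B01Rik on the other strand.

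Calr (ENSMUSG00000003814, chromosome 8, 84841850 to 84846934) encodes a lectin chaperone that binds glycoproteins and calcium. It had 149.8, 25.5, 18.7 and 130.4 CPM in Hypoxia+Nitrate 1 to 4 and 15.2, 5.46, 4.22 and 7.47 CPM in Hypoxia 1 to 4. Hypoxia 1 was the highest of its group and still below Hypoxia+Nitrate 3. Calr rose by 3.33 on the log2 scale (SE 0.788, adjusted p = 0.0149) and did not pass without Hypoxia 3 or without Hypoxia 4 (adjusted p up to 0.0539).

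The disulfide isomerases, which form and rearrange disulfide bonds of secreted proteins, behaved unlike each other. Pdia6 (ENSMUSG00000020571, chromosome 12, 17266545 to 17284770) had 24.3, 8.81, 9.58 and 30.5 CPM in Hypoxia+Nitrate 1 to 4, against 3.40, 3.27, 6.38 and 2.65 CPM in Hypoxia 1 to 4, with no overlap. It rose by 2.22 on the log2 scale (SE 0.540, adjusted p = 0.0163) and did not pass without Hypoxia 1 or without Hypoxia 4. Pdia4 (ENSMUSG00000025823, chromosome 6, 47796141 to 47813430) had 14.7, 22.6, 16.2 and 21.9 CPM in Hypoxia+Nitrate 1 to 4 and 10.6, 12.4, 15.2 and 12.2 CPM in Hypoxia 1 to 4. Here Hypoxia+Nitrate 1 lay below Hypoxia 3, and Hypoxia+Nitrate 1 and 4 were not set apart from Hypoxia+Nitrate 2 and 3. The log2 fold change of Pdia4 was 0.58 (SE 0.358, adjusted p = 0.236); it was -0.18 with library size alone and -0.67 after background subtraction, and it passed in 0 of 19 alternative fits.

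Herpud1 (ENSMUSG00000031770, chromosome 8, 94386438 to 94395377) belongs to the complex that exports misfolded proteins from the reticulum. It had 133.6, 37.1, 27.7 and 64.2 CPM in Hypoxia+Nitrate 1 to 4, against 9.41, 19.5, 8.48 and 14.6 CPM in Hypoxia 1 to 4. Every Hypoxia+Nitrate library was higher than every Hypoxia library, with a log2 fold change of 2.34 (SE 0.588, adjusted p = 0.0182). Herpud1 did not pass without Hypoxia 1, 3 or 4. Dnajb9 (ENSMUSG00000014905, chromosome 12, 44205559 to 44210326), which encodes ERdj4 and helps BiP hold IRE1 inactive, had 22.3, 7.11, 5.88 and 9.27 CPM in Hypoxia+Nitrate 1 to 4 and 3.004, 4.95, 4.06 and 2.35 CPM in Hypoxia 1 to 4. The groups did not overlap, but the gap between Hypoxia+Nitrate 3 and Hypoxia 2 was small. Its log2 fold change was 1.63 (SE 0.537, adjusted p = 0.0475), and it passed in 2 of the 8 fits that left out 1 library, those without Hypoxia+Nitrate 2 and without Hypoxia+Nitrate 3.

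In Hypoxia the members stood close to the receptor-gene background. Their counts were 2.12 to 540.1 times the expected background in Hypoxia+Nitrate and 0.698 to 9.56 times in Hypoxia, where 5 of 40 values lay below it. Pdia6 was the lowest in Hypoxia, with 31.3, 3.31, 4.02 and 35.6 times the expected background in Hypoxia+Nitrate 1 to 4, against 0.762, 1.01, 1.58 and 0.698 times in Hypoxia 1 to 4. The expression of Pdia6 in Hypoxia 1, 2 and 4 was therefore not detectable above background at this depth. Hspa5 and Dnajb9 also fell below the expected background in at least 1 Hypoxia library, at 0.891 times in Hypoxia 3 for Hspa5 and 0.980 and 0.901 times in Hypoxia 1 and 4 for Dnajb9. Herpud1 and Pdia4 stood clearest, with 3.33 to 9.56 and 3.68 to 5.97 times in Hypoxia. After subtraction of the expected background, limma-voom called 1 of the 10 members, Pdia6 (adjusted p = 0.0132), against 4.24% of 14996 genes called higher. At an unadjusted p under 0.05, 4 members were higher, where 4845 of 14996 genes passed in either direction. The subtracted counts of Pdia6 were 331, 108, 132 and 607 in Hypoxia+Nitrate 1 to 4, against 0, 0.619, 44.5 and 0 in Hypoxia 1 to 4. The call thus rests on a group that the subtraction set near 0, and its fitted fold change is no measure of size. The median fitted log2 fold change of the members there was 2.07, with Hspa5, Pdia6 and Dnajb9 at 0 in at least 1 Hypoxia library.

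**Figure D2:**
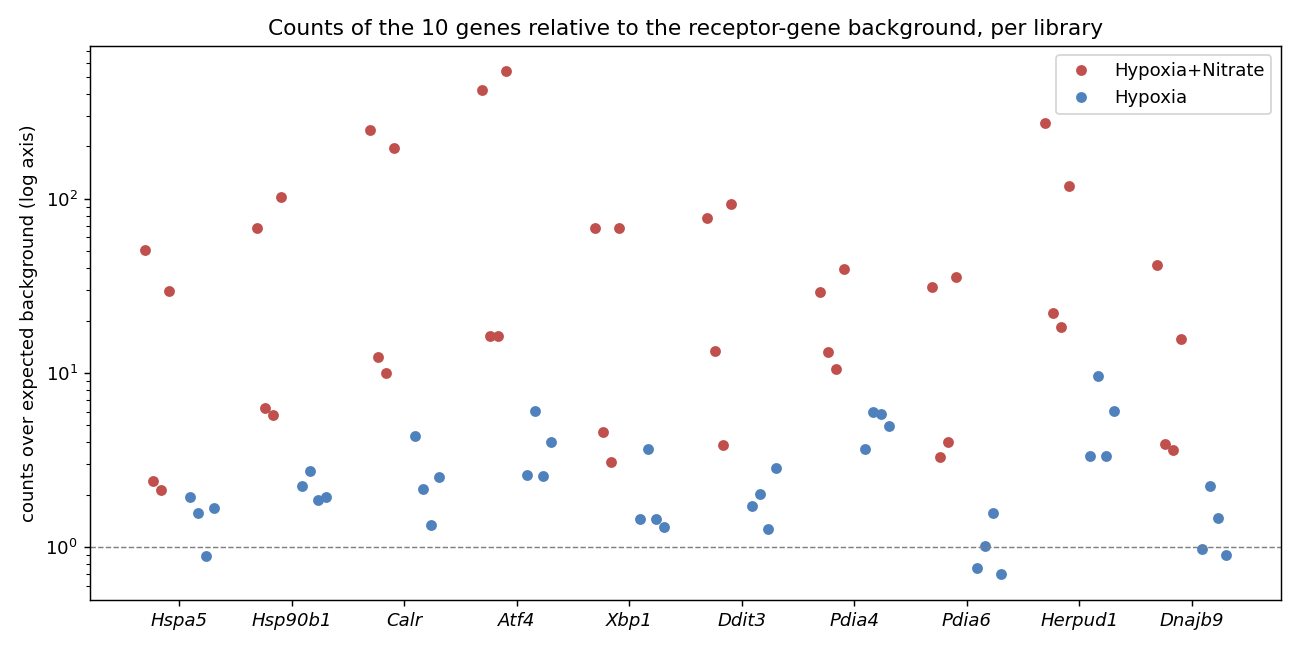
Counts of each gene divided by the count expected from the receptor-gene background (log axis; dashed line at 1), with the 4 Hypoxia+Nitrate libraries left in red and the 4 Hypoxia libraries right in blue, replicates 1 to 4 in order. The Hypoxia+Nitrate values lie between 2.12 and 540.1, and the 40 Hypoxia values between 0.698 and 9.56.

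The fold changes depended on how the libraries were brought to 1 scale. TMM multiplied the library sizes by 0.220, 1.65, 2.13 and 0.393 in Hypoxia+Nitrate 1 to 4 and by 0.760, 0.633, 3.69 and 1.85 in Hypoxia 1 to 4, and a low factor gives a high CPM. With library size alone the median of the members was 0.81 and that of all genes -1.07, and 9 members kept a positive log2 fold change. A measure that uses neither TMM nor mitochondrial and ribosomal DNA counts is the share of the members in nuclear protein-coding counts. The summed share was 0.106%, 0.0622%, 0.0435% and 0.0962% in Hypoxia+Nitrate 1 to 4, against 0.0442%, 0.0415%, 0.0344% and 0.0356% in Hypoxia 1 to 4. It averaged 0.0771% ± 0.0293 in Hypoxia+Nitrate and 0.0389% ± 0.00472 in Hypoxia (SD, n = 4 each), a ratio of 1.98 that did not pass (2-sided exact permutation test, p = 0.0571). The smallest p that 4 against 4 samples allow is 0.0286, and Hypoxia+Nitrate 3 lay below Hypoxia 1. With the expected background taken off, the shares averaged 0.0797% ± 0.0289 and 0.0455% ± 0.0112 (exact permutation p = 0.0857).

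In CPM over nuclear protein-coding counts alone, Hspa5 averaged 37.3 ± 21.03 in Hypoxia+Nitrate and 36.1 ± 15.2 in Hypoxia (SD, n = 4 each), while Atf4 averaged 217.6 ± 150.5 in Hypoxia+Nitrate and 46.9 ± 10.7 in Hypoxia. Pdia4 averaged 45.8 ± 26.3 in Hypoxia+Nitrate and 66.2 ± 10.9 in Hypoxia on that scale. These means are given as a description.

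**Figure D3:**
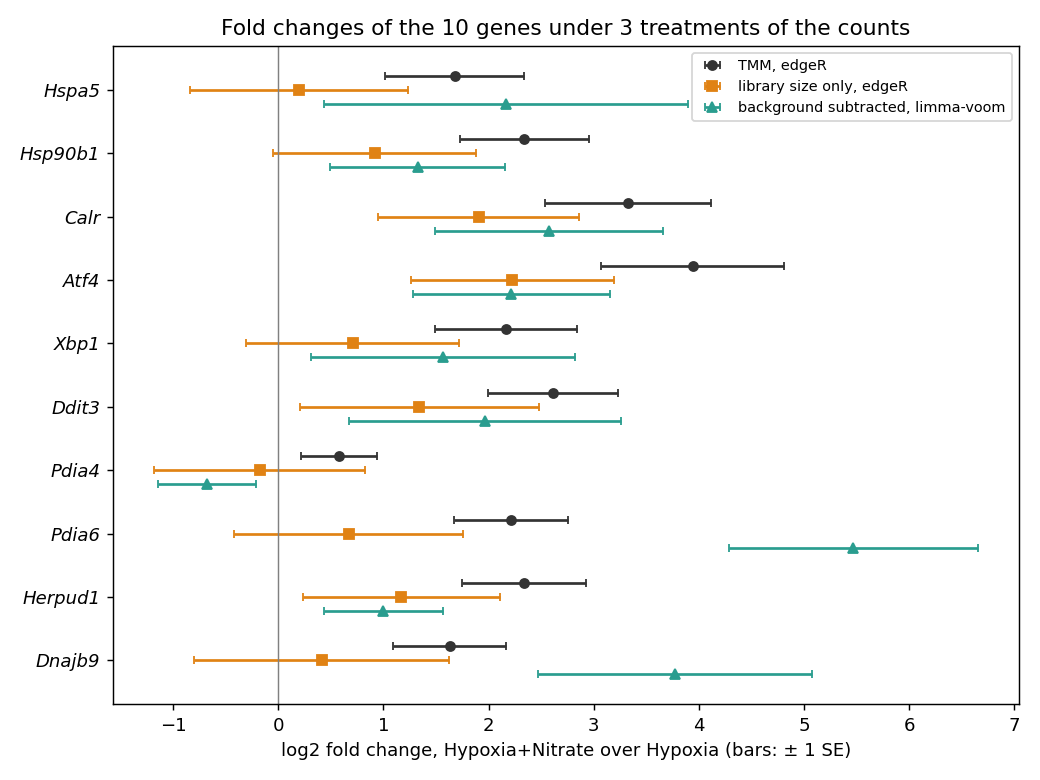
Log2 fold change of each gene (x axis, Hypoxia+Nitrate over Hypoxia, bars of 1 SE) with TMM in edgeR (black circles), library size alone in edgeR (orange squares) and after background subtraction in limma-voom (green triangles). The medians are 2.28, 0.81 and 2.07, and Pdia4 lies below 0 in the last 2. The last median includes Pdia6 (5.47), Dnajb9 (3.78) and Hspa5 (2.16), which the subtraction set to 0 in at least 1 Hypoxia library.

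How the members differed from one another was read within each library, where no scaling between libraries enters, as the log2 of counts per kb over the geometric mean of the 10 members. Relative to the others, Atf4 stood at 2.35, 1.14, 1.46 and 2.90 in Hypoxia+Nitrate 1 to 4, against 0.41, 1.07, 0.51 and 0.92 in Hypoxia 1 to 4. Pdia4 stood at -1.50, 0.81, 0.83 and -0.88 in Hypoxia+Nitrate 1 to 4 and at 0.90, 1.04, 1.69 and 1.23 in Hypoxia 1 to 4. For both genes the groups did not overlap, with differences of 1.24 for Atf4 and -1.40 for Pdia4 (exact permutation p = 0.0286 each), but neither passed after adjustment over the 10 members (exact permutation, adjusted p = 0.143). Calr (0.98) and Hspa5 (-0.72) followed in size and overlapped between the groups. After background subtraction the difference of Pdia4 was -2.72 and that of Atf4 0.14 (exact permutation, adjusted p = 0.143 and 0.929). The subtraction set Hspa5, Pdia6 and Dnajb9 to 0 in at least 1 Hypoxia library, which lowers the geometric mean that the other members are set against. The subtracted differences are therefore no measure of size or direction.

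Levels per kb of exon put Herpud1, Atf4, Calr or Pdia4 first in each library. Atf4 was first in Hypoxia+Nitrate 1 and 4 with 88.7 and 125.2 CPM per kb, and Herpud1 was first in Hypoxia+Nitrate 2 and 3 with 15.9 and 11.9 CPM per kb. In Hypoxia 1 to 4 the first members were Calr, Herpud1, Pdia4 and Herpud1, with 5.26, 8.36, 6.33 and 6.25 CPM per kb. Among nuclear protein-coding genes ranked per kb within a library, Pdia4 lay at percentiles 80.4 to 93.7 in Hypoxia+Nitrate and 94.8 to 98.0 in Hypoxia. Herpud1 lay at 93.2 to 97.1 in Hypoxia+Nitrate and 93.5 to 97.9 in Hypoxia, while Pdia6 lay at 70.4 to 81.3 in Hypoxia+Nitrate and 13.9 to 60.9 in Hypoxia. By rank, Pdia4 was thus lower in every Hypoxia+Nitrate library, Pdia6 higher in every one, and Herpud1 overlapped.

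**Figure D4:**
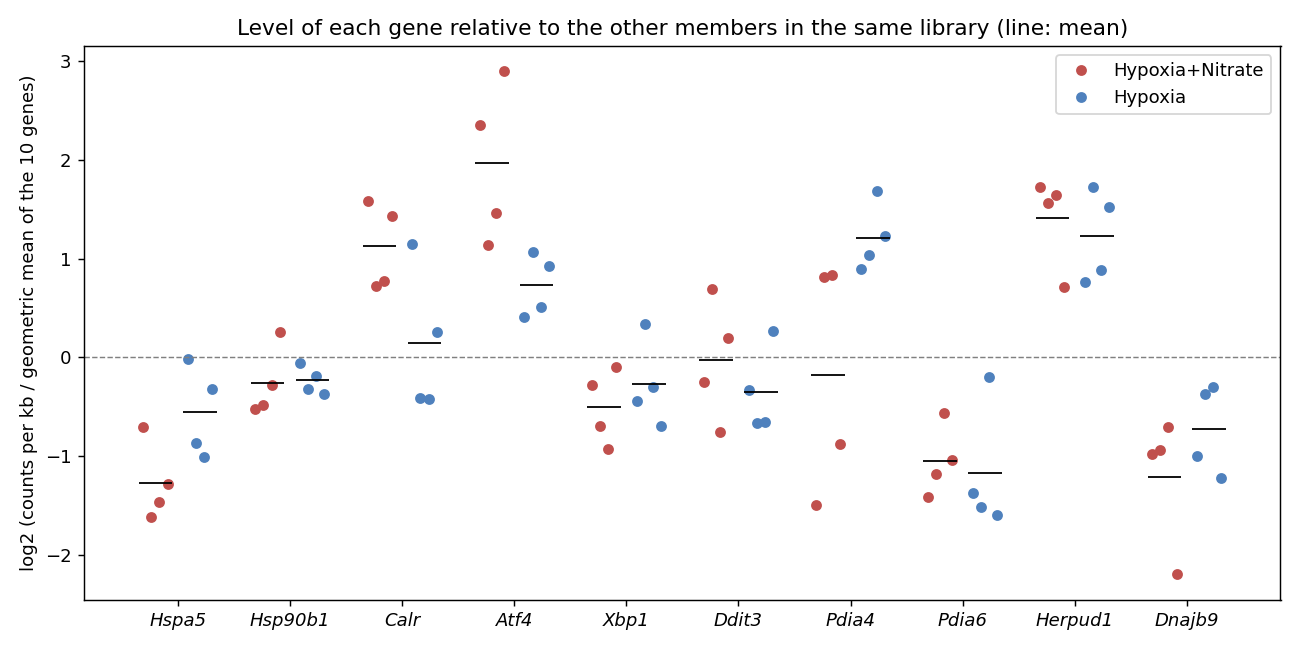
Log2 of counts per kb of each gene over the geometric mean of the 10 genes in the same library (y axis), with Hypoxia+Nitrate left in red and Hypoxia right in blue; lines are group means. The groups do not overlap for Atf4, higher in Hypoxia+Nitrate, and for Pdia4, lower in Hypoxia+Nitrate.

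Across the 8 libraries the log2 CPM of 9 members ran together and that of Pdia4 did so less. The median Pearson r of a member with the other 9 was between 0.82 (Dnajb9) and 0.93 (Atf4), and 0.54 for Pdia4. The closest pair was Atf4 and Hsp90b1 (r = 0.98). Outside the lists the genes most like the mean profile of the members were Car13, H2-T22, Jak1, Sys1 and Rhog, with r of 0.996 to 0.999 over 8 libraries. Of 14841 candidate genes 1398 reached an r of at least 0.95. These values are a description, since all genes share the libraries, their scaling and the gap between Hypoxia+Nitrate 1 and 4 and the rest.

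Of 64 other genes of the pathway 22 rose, 1 fell and 41 did not pass, with a median log2 fold change of 1.30, where 11.7% of all genes tested and 18.5% of the nuclear protein-coding ones rose and 12.7% of all genes fell. In the fits that left out Hypoxia 1, 2, 3 or 4 in turn, 5, 14, 10 and 13 of them rose, against 1.95%, 7.06%, 4.16% and 4.23% of all genes in those fits. With library size alone 1 rose, against 0.686% of all genes. After background subtraction 1 of those still tested rose, against 4.24% of all genes tested there. None of the sensors and the proteases that cut ATF6 passed in edgeR. Of these 7 genes 0 rose and 0 fell in edgeR, with 1 lower at an unadjusted p under 0.05, and DESeq2 and limma-voom each called 0 higher and 1 lower; the median log2 fold change was -0.42. Ern1, which encodes IRE1α, had 3.34, 7.45, 2.45 and 7.02 CPM in Hypoxia+Nitrate 1 to 4 and 15.02, 12.9, 8.80 and 15.8 CPM in Hypoxia 1 to 4. Every Hypoxia+Nitrate library was lower, but the log2 fold change of -1.37 (SE 0.476) did not pass in edgeR (adjusted p = 0.0566), and Ern1 in Hypoxia stood at 1.501 times background. Mbtps2 and Mbtps1, the site-2 and site-1 proteases, were at 1.06 (adjusted p = 0.135) and 0.68 (adjusted p = 0.271). The PERK gene Eif2ak3 and Atf6, named here after their values were seen, were at -0.75 (adjusted p = 0.329) and -0.42 (adjusted p = 0.440).

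Of 19 genes of the ATF4 and CHOP branch 8 rose and 0 fell, with a median of 1.28; 0 were lower at an unadjusted p under 0.05, and DESeq2 and limma-voom each called 1 lower. Cebpb, a partner of ATF4 and CHOP, had 49.9, 26.3, 30.2 and 109.7 CPM in Hypoxia+Nitrate 1 to 4, against 3.67, 8.22, 8.33 and 2.41 CPM in Hypoxia 1 to 4, and rose by 3.25 (SE 0.641, adjusted p = 0.00917). Ppp1r15a, which encodes GADD34 and restores translation, rose by 1.84 (SE 0.372, adjusted p = 0.00934), and Ddit4, an inhibitor of mTORC1 that low oxygen also raises, by 2.52 (SE 0.529, adjusted p = 0.0100). None of the 3 overlapped between the groups.

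Of 21 other chaperones and folding enzymes 7 rose and 1 fell, with a median of 1.35; 3 were lower at an unadjusted p under 0.05, and DESeq2 called 3 and limma-voom 2 lower. P4hb, the founding disulfide isomerase, had 1778, 104.8, 100.7 and 992.9 CPM in Hypoxia+Nitrate 1 to 4, against 19.0, 36.7, 8.12 and 6.75 CPM in Hypoxia 1 to 4. It rose by 5.40 (SE 1.21, adjusted p = 0.0122), further than any of the 10 members. Ppib, a prolyl isomerase, and Pdia3, the isomerase that works with calreticulin, rose by 3.13 (SE 0.706) and 2.93 (SE 0.680), with adjusted p = 0.0125 and 0.0137. The gene that fell was Ero1lb, an oxidase of the isomerases, named after its values were seen. It had 1.70, 1.25, 0.980 and 4.83 CPM in Hypoxia+Nitrate 1 to 4 and 14.9, 8.001, 8.12 and 4.999 CPM in Hypoxia 1 to 4 (log2 fold change -2.03, adjusted p = 0.0407), and in Hypoxia it stood at 1.26 times background. The other genes lower at an unadjusted p under 0.05, also named after their values were seen, were the isomerase gene Pdia5 (log2 fold change -1.34, adjusted p = 0.0950) and the chaperone gene Hyou1 (-1.51, adjusted p = 0.109). Hyou1 had 5.11, 6.03, 2.39 and 8.10 CPM in Hypoxia+Nitrate 1 to 4 and 8.28, 6.18, 8.59 and 38.5 CPM in Hypoxia 1 to 4. Its groups overlapped, and Hypoxia 4 stood far above the rest.

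Of 17 genes of reticulum-associated degradation 7 rose and 0 fell, with a median of 1.77; 0 were lower at an unadjusted p under 0.05 or in DESeq2 or limma-voom. Ube2g2, a ubiquitin-conjugating enzyme of this route, rose by 2.16 (SE 0.450, adjusted p = 0.00989), Selenos, a selenoprotein that binds the export complex, by 2.58 (SE 0.545, adjusted p = 0.0102), and Nploc4, a cofactor of the extracting ATPase p97, by 2.28 (SE 0.492, adjusted p = 0.0109). None of these 3 overlapped between the groups.

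Markers of cell types known for high levels of this pathway also differed between the groups, as did those of the epithelium in general, of which 10 of 10 rose with a median log2 fold change of 4.86 (11.7% of all genes and 18.5% of nuclear protein-coding genes rose). Paneth cell markers rose for 9 of 11 genes, with a median of 3.14 and summed levels of 426 to 1512 CPM in Hypoxia+Nitrate and 34.6 to 139 CPM in Hypoxia. Goblet cell markers rose for 4 of 9, with a median of 1.798 and sums of 268 to 1660.2 CPM in Hypoxia+Nitrate and 51.7 to 185 CPM in Hypoxia. Plasma cell markers rose for 3 of 10, namely Igkc, Jchain and Igha, with a median of 0.50 and sums of 167 to 936 CPM in Hypoxia+Nitrate and 49.99 to 91.9 CPM in Hypoxia. Of the plasma cell markers that did not pass, Irf4 (-2.28), Fkbp11 (-2.28) and Derl3 (-1.52) had a lower CPM in every Hypoxia+Nitrate library than in any Hypoxia library. The same held for 28.8% of all genes tested. In Hypoxia these 3 genes stood at 1.28, 1.502 and 0.953 times the expected background, so their expression was not clearly above background there. Tnfrsf17 was at -2.44 with overlap. Pancreatic acinar markers, tested because pancreas can adhere to duodenum and is rich in these genes, rose for 0 of 10 genes tested and fell for 3, with sums of 9.66 to 18.3 CPM in Hypoxia+Nitrate and 25.4 to 29.2 CPM in Hypoxia, and Cela2a and Try4 were at 0 in all 4 Hypoxia+Nitrate libraries. In Hypoxia the genes that fell, Cela2a, Try4 and Cela3b, stood at 0.976, 1.54 and 1.34 times the expected background and the list at a median of 1.34 times, so acinar expression was not clearly above background there either. The part of these cell types in the levels of the members was not tested, and in bulk tissue fewer cells of a type and less RNA per cell cannot be told apart.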

How the data were processed

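RNA from 8 mouse small intestine samples was measured. Gene-level read counts, whole and not normalized, were deposited as a joint table and as 1 table per sample; the 8 per-sample columns equalled the joint ones. The submitters' processing notes name HISAT, featureCounts 1.5.0-p3, DESeq 1.8.3 and GRCm38. Annotation and strand setting: not given in the sources used here. Of 55421 IDs 55240 matched GENCODE M21 (GRCm38), which gave coordinates and exonic lengths. Groups and replicate numbers came from the sample titles.

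Counts were tested in R 4.3.3 with edgeR 4.0.16 (filterByExpr with a minimum count of 10 and a minimum total of 15, TMM scaling, quasi-likelihood test between the groups, Benjamini-Hochberg adjustment over all genes tested at 0.05). CPM came from the counts and TMM-scaled library sizes; SE came from the fold change and its F statistic. Single values used 2-sided exact permutation tests over samples. The relative level within a library had 0.5 added to each count. Expected background was the receptor-gene density multiplied by the exonic length free of other genes, halved (a factor of 0.5) on X and Y. Alternatives used DESeq2 1.42.0, limma-voom (limma 3.58.1), other scalings, no filter, the replicate block, nuclear protein-coding genes alone, background subtraction and leaving out libraries. The scripts were tested on simulated data. Named genes were the 10 members, the 3 genes with the lowest p of each other pathway list and 5 genes of like profile. Members, lists and most alternatives were chosen with earlier results of these data known. The fits without 2 libraries were chosen after seeing the data. Promoter sequences are from RefSeq (GRCm38.p6).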

Additional observations from a re-analysis of the deposited data

Results flagged for a closer look

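Across 42 sets of 4 values (CPM and relative level of each member in each group, and the summed share in each group), 2 had a library that stood apart from the other 3 by more than Dixon's 95% critical value, where chance flags about 1 in 20. The level of Herpud1 relative to the geometric mean of the members was 0.72 in Hypoxia+Nitrate 4, against 1.57 to 1.72 in the other Hypoxia+Nitrate libraries. That of Pdia6 was -0.20 in Hypoxia 3, against -1.60 to -1.38 in the other Hypoxia libraries, and Hypoxia 3 was also the 1 Hypoxia library in which Pdia6 exceeded 1.5 times the expected background.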

How the results depend on the processing

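Depth and background limit the Hypoxia values: members held as few as 37 counts. Each member kept a positive log2 fold change in all 19 alternatives except Pdia4, which was -0.18 with library size alone and -0.67 after background subtraction. With library size alone 1800 genes were called (0.686% of genes higher), 0 of the members higher, and 1 of the other pathway genes higher and 0 lower. After background subtraction in limma-voom 2020 genes were called (4.24% of genes higher), 1 member higher, and 1 other pathway gene higher and 0 lower. Without a filter 16708 genes were called, with DESeq2 14689 (13.1% higher) and with limma-voom 15818 (10.9% higher). Other pathway genes lower numbered 2 with RLE factors, 3 with upper-quartile factors, 5 with DESeq2, 4 with limma-voom and 4 with nuclear protein-coding genes alone, against 1. Genes called in either direction were 9249 and 8269 of 35431 with RLE and upper-quartile factors. With nuclear protein-coding genes alone they were 6023 of 20463. RLE factors, upper-quartile factors, limma-voom and nuclear protein-coding genes alone each called 6 members (of all genes 9.14%, 8.03%, 10.9% and 15.1% rose there). DESeq2 and the fit without a filter called 8 each (13.1% and 9.33% of genes rose there).

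With the replicate number as a block (replicate block), 4791 genes were called, 5 members were higher (6.14% of genes higher), and 0 other pathway genes were lower. The deviations of same-numbered samples from their group means had r of 0.05, -0.18, 0.18 and -0.05 for numbers 1 to 4. These values show no clear pairing, but so few libraries cannot exclude one.

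Leaving out 1 library gave 1932 to 22454 genes called (1.95% to 14.3% of genes higher) and 1 to 9 members higher. Other pathway genes numbered 5 to 32 higher and 0 to 3 lower. The lowest counts of genes, members and higher pathway genes came without Hypoxia 1. Without Hypoxia 1 and 2, edgeR called 4227 genes (1.51% higher), 0 members, 2 other pathway genes higher and 0 lower. There 8 members had an unadjusted p under 0.05, as did 11037 of 41205 genes in either direction. Without Hypoxia+Nitrate 1 and 4 it called 3 members (10.1% of genes higher), and 17 other pathway genes higher and 2 lower. The cause of these moves was not tested. The share of the members in nuclear protein-coding counts kept its direction in each alternative, with differences of 0.0284 to 0.0494 percentage points when 1 library was left out.

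Relative levels of Atf4, Calr, Xbp1 and Pdia4 within a library kept their sign in all alternatives, though Atf4 was at 0.14 after background subtraction. After background subtraction the sign turned for Hspa5 (0.0374), Ddit3 (-0.14), Herpud1 (-1.06) and Dnajb9 (1.51). Members set to 0 in Hypoxia lower the geometric mean there, so signs after subtraction are no check on direction. With 1 library left out it ranged from -0.199 to 0.0622 for Hsp90b1 and from -0.0387 to 0.448 for Pdia6, both of which changed sign. With 3 samples in a group the smallest exact permutation p is 0.0571, so those fits could not pass.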
